A study of Mus musculus with 18 samples.

Results

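Untreated lung of the inbred mouse strain C3H/HeJ was compared with untreated lung of the inbred strain A/J. The 6 arrays were chosen by their sample titles, 3 titled as C3H controls and 3 as AJ controls, out of 18 arrays in the series. The series compared irradiated with untreated lung in 3 strains, C57BL/6J, C3H/HeJ and A/J, with 3 arrays in each of 6 groups. RNA of the right lung was labelled with biotin and hybridised to single-colour oligonucleotide arrays, on which a gene is read by one or more probe sets. Both groups compared here were mice of inbred strains, received no irradiation (0 Gy) and carried the same age label, 15 to 26 weeks. Untreated C57BL/6J mice, whose levels are given beside these, carried that age label too. All 18 arrays were scaled together and shared one estimate of the spread, and the irradiated A/J and C3H/HeJ arrays also served to read the strain differences in other samples. The irradiated mice received 18 Gy to the thorax at 8 weeks, with a shielded beam given as 3%. They were sacrificed when moribund, at 20 to 22 weeks in C3H/HeJ, 30 to 32 weeks in A/J and 28 to 30 weeks in C57BL/6J. The labels speak of samples from control mice and do not state that each array is a separate animal, so p-values measure the spread between these samples, which may be technical in part. Neither the sex of the mice nor the time of day of sacrifice is given in the sources used here.

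Inbred strains are each nearly homozygous and differ from one another at many loci, so an RNA that differs between untreated mice of 2 strains can reflect an inherited variant, the cells present or the state of the animal. C3H/HeJ is known for a defective Tlr4, the receptor for bacterial endotoxin. A/J is known for a retroviral insertion in Dysf, for a lack of complement component C5, which Hc encodes, and for a permissive Naip5 allele. The strains also carry different haplotypes of the major histocompatibility complex (MHC), the H2 region in mice. A short-probe array reads the strain's own sequence, and with these files a base difference under a probe and a difference in RNA level cannot be told apart within a single probe set.

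All 6 arrays carried the defining markers of lung at high and like levels. On the scale used throughout, log2(signal + 7) after quantile normalisation, with a floor of 2.81, Sftpc of alveolar type 2 cells read 12.85 to 13.04. Ager of type 1 cells read 12.8 to 12.9 and Scgb1a1 of club cells 13.0 to 13.2. The squamous keratin Krt4 read 3.41 to 5.17 in these arrays, against 11.5 and 11.7 in C57BL/6J controls 1 and 3. Before scaling, the trimmed mean signal was 80.1 to 87.7 in A/J and 46.3, 74.9 and 71.2 in C3H/HeJ, and C3H/HeJ control 1 was the dimmest of the 18 arrays. Replicates correlated at 0.984 to 0.986 in A/J and 0.971 to 0.981 in C3H/HeJ over the kept probe sets, against 0.954 to 0.970 between the strains.

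Of 12405 genes tested, 557 (4.49%) differed between the strains at an adjusted p below 0.05 in limma, and such genes are called changed below. The calls were balanced, with 290 genes (2.34%) higher and 267 (2.15%) lower in C3H/HeJ. In 556 of the 557 the 3 arrays of one strain did not overlap those of the other, which was also true of 3321 (26.8%) of all genes tested. Changes above 1 on the log2 scale were found for 100 genes higher and 100 lower in C3H/HeJ, and changes above 2 for 14 higher and 12 lower. The median absolute difference was 0.83 over the called genes and 0.16 over all genes. The balance between the directions rested on the scaling: without scaling the median of all genes shifted to -0.38 and 251 genes were called, 36 higher and 215 lower, and with median centring the median was -0.09 and 353 were called, 139 higher and 214 lower. Leaving out 1 of the 6 arrays brought the count to between 326, without C3H/HeJ control 1, and 450, without C3H/HeJ control 2; it was 365, 339 and 368 without A/J controls 1, 2 and 3 and 436 without C3H/HeJ control 3. With the 6 arrays fitted alone 538 genes were called, 400 of them among the 557. For genes near the floor the pseudocount of 7 sets the size: with a pseudocount of 1 or 32 the difference of Dysf was 3.44 or 0.88 and that of Mndal 5.95 or 3.81, both called each time.

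**Figure D1:**
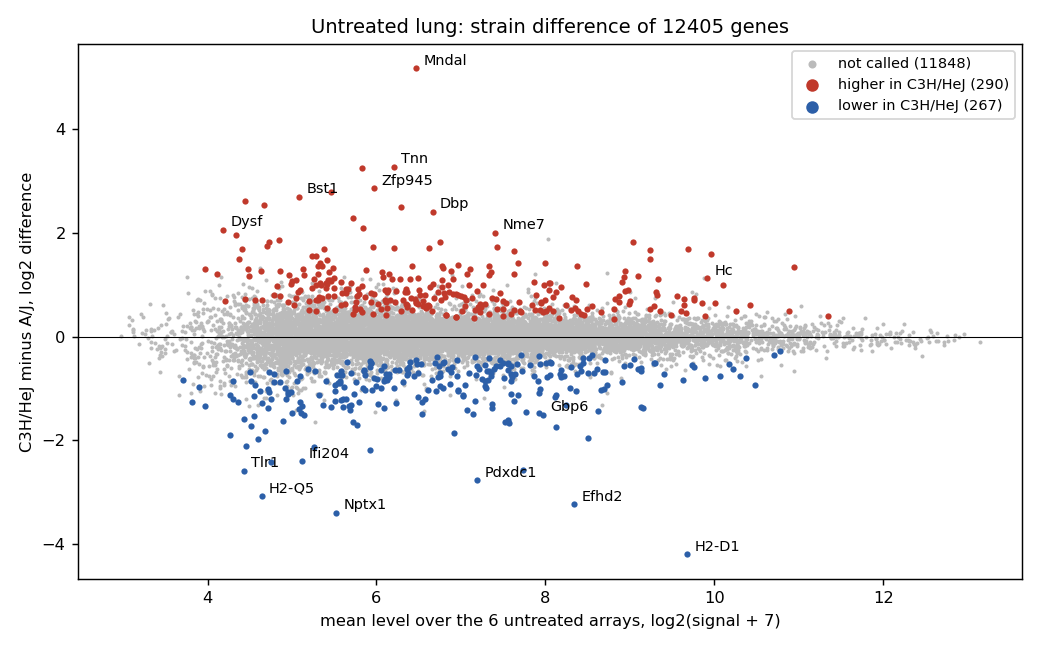
Strain difference (C3H/HeJ minus A/J, log2) of each of 12405 genes against its mean level over the 6 untreated arrays, with 290 genes called higher in red and 267 called lower in blue. Mndal, at 5.18, and H2-D1, at -4.21, lie farthest from 0 in each direction, and most genes lie near 0 at every level.

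The genes with the greatest called differences were read in every array. Mndal, an interferon-inducible gene of the Ifi200 family, read 3.82, 4.18 and 3.64 in A/J and 9.02, 9.14 and 9.02 in C3H/HeJ. It was near the floor in all 3 A/J arrays and well expressed in all 3 C3H/HeJ arrays, a difference of 5.18 ± 0.22 (SE, limma adjusted p = 1.8e-09) or 36.3-fold. C57BL/6J controls averaged 8.92, close to C3H/HeJ. The zinc finger gene Zfp945 read 4.85, 4.62 and 4.14 in A/J and 7.24, 7.49 and 7.46 in C3H/HeJ, a difference of 2.86 ± 0.22 (adjusted p = 2.51e-06). Its mean of 7.30 in C57BL/6J was also that of C3H/HeJ rather than A/J. Exosc1, a subunit of the RNA exosome, read 3.74, 3.79 and 5.07 against 7.38, 7.44 and 7.55, a difference of 3.26 ± 0.41. Bst1 (CD157), a cell-surface enzyme that hydrolyses NAD, read 4.31, 3.92 and 2.98 against 6.47, 6.31 and 6.52, a difference of 2.70 ± 0.33. Its second probe set gave 2.93 to 3.28 in A/J and 5.63 to 6.76 in C3H/HeJ, so the strains were apart on both.

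Lefty1, an extracellular antagonist of Nodal signalling, read 3.17, 2.97 and 3.27 in A/J and 5.95, 5.51 and 5.80 in C3H/HeJ. The A/J arrays lay near the floor and the difference was 2.62 ± 0.23 (limma adjusted p = 5.92e-06). Tnn, which encodes the matrix protein tenascin-W, read 3.46, 4.95 and 5.29 in A/J and 7.33, 8.22 and 8.00 in C3H/HeJ, a difference of 3.28 ± 0.42 with a wide spread within A/J. Bcat2, the mitochondrial branched-chain aminotransferase, read 4.72, 4.26 and 4.75 against 6.72, 6.84 and 7.03. Nme7, a gene of the nucleoside diphosphate kinase family, read 6.39, 6.33 and 6.48 against 8.43, 8.41 and 8.38, and its 3 replicates were the tightest of these genes (2.00 ± 0.12, adjusted p = 1.24e-07). Bex1, a gene expressed in neurons and endocrine cells, read 4.73 to 4.87 in A/J and 6.57 to 7.30 in C3H/HeJ. The uncharacterised 1600014C23Rik read 3.23 to 3.46 against 5.03 to 5.82. Of the other genes among the 15 most increased, Dbp and Dysf are given with their lists, and Tnnt1, Myl2 and Myl3, which encode sarcomere proteins, with the muscle genes.

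Several genes were as clearly lower in C3H/HeJ. Nptx1, a neuronal pentraxin, read 7.25, 7.10 and 7.32 in A/J and 4.22, 3.62 and 3.63 in C3H/HeJ, a difference of -3.40 ± 0.37 (limma adjusted p = 5.29e-05). Its second probe set gave 6.05 to 6.31 against 4.49 to 4.69, without overlap. Tlr1, which pairs with TLR2 to sense bacterial lipopeptides, read 5.63, 5.78 and 5.77 in A/J and 3.44, 3.00 and 2.98 in C3H/HeJ, where it lay near the floor (-2.59 ± 0.37, adjusted p = 0.000622). C57BL/6J controls averaged 4.73, between the other strains. Cxcl5, a neutrophil-attracting chemokine that lung epithelium makes, read 5.41, 5.91 and 6.57 in A/J and 3.47, 3.43 and 3.70 in C3H/HeJ (-2.43 ± 0.25, adjusted p = 3.08e-05). The A/J arrays were high and spread over more than 1 log2 unit, while C3H/HeJ and C57BL/6J (mean 3.06) were low.

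The metalloprotease-family genes Adam28 and Adamdec1 were both lower in C3H/HeJ. Adam28 read 5.69, 5.50 and 5.57 in A/J and 3.79, 3.71 and 3.35 in C3H/HeJ (limma, -1.97 ± 0.25, adjusted p = 0.000244). Adamdec1 read 6.62, 5.96 and 6.41 against 3.32, 4.82 and 4.43 (-2.14 ± 0.42). C57BL/6J had the level of A/J for both, 5.67 and 6.48. Galnt2, an enzyme that starts mucin-type O-glycans, read 9.39, 9.51 and 9.53 against 7.37, 7.46 and 7.74, and a second probe set was apart in the same way (8.70 to 8.73 against 6.76 to 7.06). The last probe set of Galnt2 read 8.08 to 8.32 in A/J and 8.20 to 8.40 in C3H/HeJ, with the strains overlapping. The zinc finger genes Zfp991 and Gm13238 read 5.01 to 5.89 and 5.03 to 5.38 in A/J and 3.10 to 3.56 and 3.06 to 3.79 in C3H/HeJ. The other kept probe set of Zfp991 ran the opposite way, 4.27 to 4.35 in A/J and 4.67 to 5.51 in C3H/HeJ, and was not called.

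**Figure D2:**
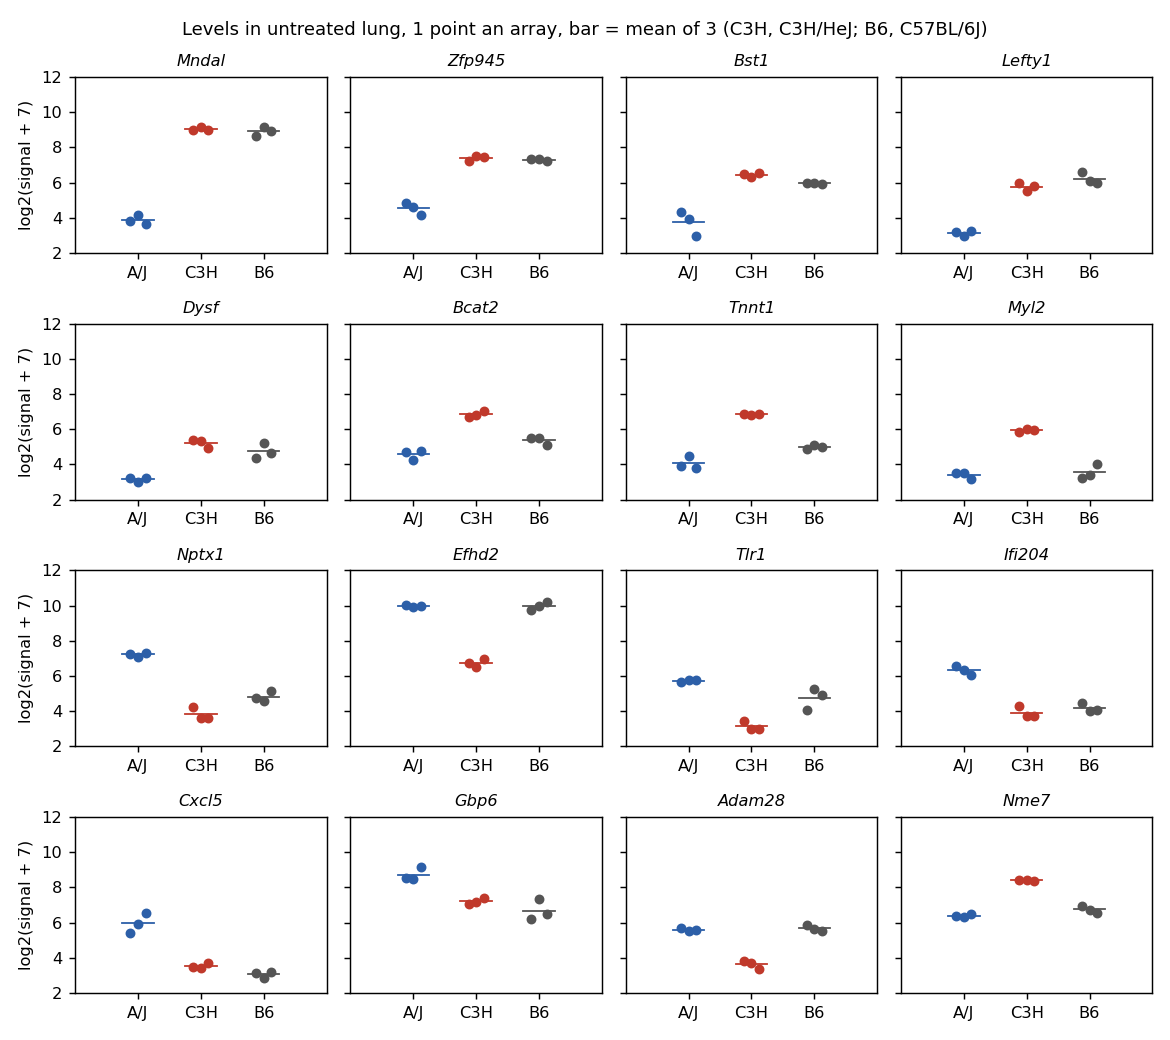
Levels of 16 genes in the untreated arrays of A/J, C3H/HeJ (C3H) and C57BL/6J (B6), on the log2(signal + 7) scale, with 1 point an array and a bar at the mean of 3. In each panel the 3 C3H/HeJ points lie apart from the 3 A/J points, and C57BL/6J lies with C3H/HeJ for Mndal (mean 8.92) and with A/J for Efhd2 (mean 9.98).

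Some of the greatest differences depended on which probe set was read. Taken singly, 1121 of 25726 probe sets (4.36%) were called. Among the 557 called genes, 246 had another kept probe set. At least 1 of the others was called the same way for 86 of these and the opposite way for 7, with 4 genes in both counts, and none was called for 157. Of the 442 other probe sets, 354 (80.1%) had the same sign. H2-D1, a classical class I antigen-presenting gene, read 11.73, 11.86 and 11.75 in A/J and 6.99, 7.76 and 7.97 in C3H/HeJ on its brightest probe set (-4.21 ± 0.67, limma adjusted p = 0.00139). On 6 of its 7 other kept probe sets it was also lower, with differences from -2.11 to -6.30. On probe set 1450170_x_at it was the other way round, 5.41, 6.58 and 6.46 in A/J and 11.00, 11.12 and 11.12 in C3H/HeJ, a difference of 4.93 ± 0.32. A probe set whose name ends in x_at has, by the maker's naming, probes that also match other sequences.

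The same held for Pdxdc1, a pyridoxal-dependent decarboxylase-like gene. It read 8.71, 8.40 and 8.62 in A/J and 6.05, 5.86 and 5.50 in C3H/HeJ on its brightest probe set (-2.78 ± 0.38, limma adjusted p = 0.000422) and was lower on 2 others (-2.10 and -1.45). The remaining probe set, 1419327_at, gave 3.90, 4.05 and 3.21 in A/J and 8.56, 8.56 and 8.33 in C3H/HeJ, a difference of 4.76 ± 0.29 the other way. Zfp945 and Exosc1 each had a probe set called in the opposite direction as well, with differences of -1.53 and -1.39. Efhd2, a calcium-binding protein of immune cells, read 10.01, 9.92 and 9.95 in A/J and 6.72, 6.50 and 6.95 in C3H/HeJ (-3.24 ± 0.37), but its other kept probe set read 8.49, 8.20 and 8.51 against 8.22, 8.17 and 8.09 and was not called. Fam168a differed by -2.59 ± 0.28 on its brightest probe set, with 8.97 to 9.09 in A/J and 6.31 to 6.53 in C3H/HeJ. Its 3 other probe sets differed by less, from -0.82 to -0.22.

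**Figure D3:**
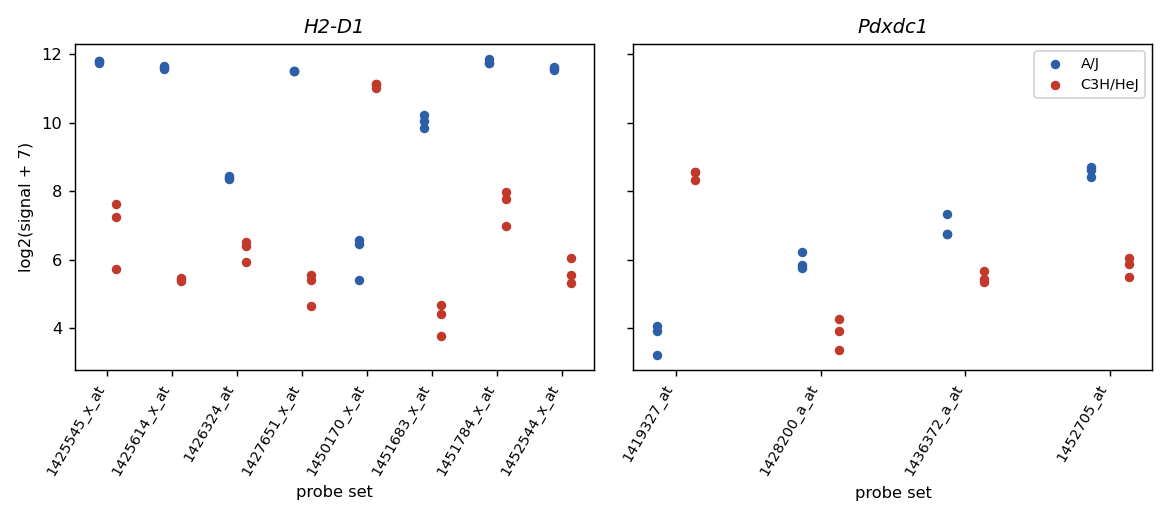
Levels of each kept probe set of H2-D1 (8 probe sets) and Pdxdc1 (4 probe sets) in the 3 A/J and 3 C3H/HeJ untreated arrays, log2(signal + 7). Of the 12 probe sets 10 are lower in C3H/HeJ, and 1 of each gene is higher by 4.93 and 4.76.

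Of 19 genes listed for known variants of inbred strains, 12 were measured, of which 3 were higher and 2 lower in C3H/HeJ, where 4.49% of all genes tested were called. Dysf, the membrane-repair protein dysferlin, read 3.23, 3.00 and 3.25 in A/J and 5.37, 5.33 and 4.95 in C3H/HeJ. The A/J arrays lay near the floor, and the difference of 2.06 ± 0.26 (limma adjusted p = 0.000244) was of like size in irradiated lung (2.30). Hc, which encodes complement C5, read 9.32, 9.20 and 9.53 in A/J and 10.50, 10.60 and 10.33 in C3H/HeJ, a difference of 1.12 ± 0.29 (adjusted p = 0.0397) that was lost with any 1 of the 6 arrays left out (1.05 to 1.21, adjusted p up to 0.134). The A/J level was thus still far above the floor. Naip5, a cytosolic sensor of bacterial flagellin, read 4.62 to 4.88 in A/J and 5.56 to 5.96 in C3H/HeJ (0.93 ± 0.16, adjusted p = 0.00226), a call that held with each array left out but not without scaling (0.55).

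Glo1, which detoxifies methylglyoxal, was lower in C3H/HeJ at 9.41, 9.52 and 9.48 against 10.05 to 10.07 in A/J (-0.59 ± 0.11, limma adjusted p = 0.00672), and both were above C57BL/6J (8.30); the call was lost without scaling (-0.98, adjusted p = 0.137). Mx1, the interferon-induced GTPase that many inbred strains lack in functional form, read 4.52 to 5.27 against 3.84 to 4.34 (-0.86 ± 0.22, adjusted p = 0.0393), and that call was lost without any one of 4 of the arrays. Tlr4 itself, the receptor that carries the C3H/HeJ defect, read 6.60, 6.62 and 6.71 in A/J and 5.77, 6.10 and 5.99 in C3H/HeJ. The arrays did not overlap, but the difference of -0.69 ± 0.21 did not pass (adjusted p = 0.0801), and on its 2 other kept probe sets the strains overlapped. The 6 other genes of this list did not pass: Ahr, Casp1, Cs, Il3ra, Nnt and Slc11a1 differed by between -0.29 and 0.28. Nnt, whose deletion is known from C57BL/6J, read 8.17 to 8.44 in both strains and 6.84 in C57BL/6J.

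Several class I genes of the H2 region differed. Of 9 measured genes of the class I list, H2-Q10 and H2-T24 were higher and H2-D1, H2-M3 and H2-K1 lower in C3H/HeJ. These were 55.6% called against 4.49% of all genes. H2-Q5, which is not in that list, read 6.07, 5.99 and 6.49 in A/J and 3.05, 3.04 and 3.21 in C3H/HeJ (-3.08 ± 0.26, limma adjusted p = 5.7e-06), although its second probe set showed no such gap (0.08). H2-M3, which presents formylated peptides, read 8.04 to 8.38 against 7.07 to 7.20 (-1.13 ± 0.18). H2-K1 was lower by 0.50 ± 0.10 on the probe set with the highest mean, at 9.50 to 9.58 against 8.92 to 9.16 (not called without scaling), but on probe set 1451931_x_at it read 11.36, 11.48 and 11.45 in A/J and 5.69, 6.17 and 7.28 in C3H/HeJ. H2-Q10 was higher by 1.68 ± 0.34 and H2-T24 by 1.24 ± 0.29. The call of H2-Q10 was lost without A/J control 2 (adjusted p = 0.0541), and that of H2-T24 without any one of 5 arrays (1.13 to 1.34). Class I genes share long stretches of sequence, so their probe sets are uncertain as to gene.

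The class II genes, whose products present antigen from outside the cell, held 1 call, 9.09% of those measured against 4.49% of all genes. Of 11 measured, none rose and 1 fell in C3H/HeJ: H2-DMa read 7.96, 8.22 and 8.11 in A/J and 7.32, 7.54 and 7.76 in C3H/HeJ (-0.56 ± 0.13, limma adjusted p = 0.0262; lost without any one of 4 arrays). The other 10 did not pass. H2-Aa, H2-Ab1, H2-Eb1 and the invariant chain Cd74 differed by -0.13, -0.41, -0.25 and -0.27, and the class II transactivator Ciita by 0.02. H2-Ob, H2-Oa, H2-DMb2 and H2-Eb2 differed by -0.70, 0.08, -0.42 and -0.92. H2-Ea, absent as a protein in strains with the C57BL/6J haplotype, read 7.57, 6.87 and 6.90 in A/J and 6.75, 7.30 and 7.21 in C3H/HeJ, with the strains overlapping, and 3.76 in C57BL/6J. Of 16 antigen-processing genes none rose and 4 fell, 25% against 4.49% of all genes. Nlrc5, the class I transactivator, fell by 0.87 (SE 0.17, adjusted p = 0.0075) and Tap2, a subunit of the peptide transporter, fell by 0.44, and both held with each array left out, Tap2 not without scaling (adjusted p = 0.244). Tapbpl and Psmb9 fell by 0.59 and 0.54 and were each lost without any one of 5 arrays.

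The Ifi200 cluster is a run of interferon-inducible genes on chromosome 1, many of which sense nucleic acids or regulate transcription. Of 7 members measured, 1 was higher and 4 were lower in C3H/HeJ, 71.4% called against 4.49% of all genes. Neighbouring genes of one family thus differed in opposite directions. While Mndal was higher, Ifi204 read 6.55, 6.35 and 6.07 in A/J and 4.26, 3.72 and 3.74 in C3H/HeJ (-2.41 ± 0.23, limma adjusted p = 1.54e-05). Ifi209 read 6.90, 6.86 and 7.30 against 4.40, 5.25 and 4.86 (-2.18 ± 0.27). Ifi213 read 4.90, 5.08 and 5.45 against 4.09, 4.28 and 3.89 (-1.06 ± 0.23), and Ifi202b 6.58, 6.04 and 6.78 against 5.74, 5.48 and 5.05 (-1.04 ± 0.23). No array of one strain overlapped the other in these 5 genes, as in 556 of the 557 called genes and 26.8% of all genes. The calls of Ifi213 and Ifi202b were lost without A/J control 3 or C3H/HeJ control 3, and that of Ifi202b also without A/J control 1 (down to -0.90 and -0.85). Ifi202b, for which C57BL/6J is known to be nearly null, averaged 2.95 there. Ifi203 and Ifi207 differed by 0.48 and 0.34 and did not pass. The genes are alike in sequence, and cross-hybridisation between them was not tested.

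The immunity-related GTPases and guanylate-binding proteins, interferon-gamma targets that attack the vacuoles of intracellular parasites, were lower in C3H/HeJ as far as they were called. Of 10 measured, none rose and 4 fell (40.0% called against 4.49% of all genes), with a median difference of -0.72 against 0.01 over all genes. Gbp6 read 8.54, 8.46 and 9.16 in A/J and 7.08, 7.15 and 7.41 in C3H/HeJ (-1.51 ± 0.26, limma adjusted p = 0.0024). Irgm2 read 8.18, 8.47 and 8.76 against 7.36, 7.42 and 7.38 (-1.08 ± 0.17), and Igtp 8.68, 8.85 and 9.12 against 8.01, 7.58 and 7.90 (-1.05 ± 0.19). Gbp2b fell by 0.65 (SE 0.18, adjusted p = 0.0483) and was lost with any 1 array left out (-0.71 to -0.58). In the 5 others that lay below 0, namely Gbp7, Gbp3, Iigp1, Irgm1 and Gbp2, the difference ran from -0.80 to -0.43 without passing, and Gbp8 differed by 0.00. With 1 of the 6 arrays left out, 3 or 4 members were called. In irradiated lung the median of the 10 was 0.11 and none was called. Among 37 other antiviral and interferon-induced genes 1 rose (Ifi27l2a) and 2 fell (Mx1 and Bst2), each lost with some arrays left out, with a median of -0.13. The share called was 8.11% against 4.49% of all genes.

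The stretch before the start of genes in these families is shown because its members were called together. In the 200 bases before each RefSeq start (mouse build GRCm38.p6), the core of the interferon-stimulated response element, 2 copies of GAAA with any 2 bases between them, was searched on both strands and found in 746 of 32851 windows (2.27%). All 7 of the 10 measured GTPase genes with a promoter in the table held it, 3 of them called, and so did 4 of the 6 Ifi200 genes with one, including Mndal and Ifi213 but not Ifi209 or Ifi202b. The windows of 5 called genes follow with the match in capitals, written in the direction of the gene. They are Igtp at chr11:58199356-58199555 (plus strand), Irgm2 at chr11:58214777-58214976 (plus), Gbp2b at chr3:142594647-142594846 (plus), Mndal at chr1:173879959-173880158 (minus, 1 of its 2 starts) and Ifi213 at chr1:173599273-173599472 (minus). A match on the opposite strand shows as copies of TTTC.
Igtp: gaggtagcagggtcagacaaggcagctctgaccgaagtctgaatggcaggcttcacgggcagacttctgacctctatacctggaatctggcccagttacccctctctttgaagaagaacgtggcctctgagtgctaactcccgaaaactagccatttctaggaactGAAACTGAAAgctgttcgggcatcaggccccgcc
Irgm2: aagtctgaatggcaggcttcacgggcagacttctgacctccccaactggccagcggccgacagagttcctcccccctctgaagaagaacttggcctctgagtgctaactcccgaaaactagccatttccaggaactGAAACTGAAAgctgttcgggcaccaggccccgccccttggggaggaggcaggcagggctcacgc
Gbp2b: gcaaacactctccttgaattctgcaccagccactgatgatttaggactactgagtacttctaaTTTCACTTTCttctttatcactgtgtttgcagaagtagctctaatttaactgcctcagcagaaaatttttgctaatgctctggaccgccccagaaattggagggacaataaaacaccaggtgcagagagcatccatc
Mndal: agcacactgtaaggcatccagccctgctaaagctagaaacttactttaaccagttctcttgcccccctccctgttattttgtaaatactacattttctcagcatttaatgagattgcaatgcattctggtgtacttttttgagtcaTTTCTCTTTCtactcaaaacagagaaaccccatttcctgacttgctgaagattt
Ifi213: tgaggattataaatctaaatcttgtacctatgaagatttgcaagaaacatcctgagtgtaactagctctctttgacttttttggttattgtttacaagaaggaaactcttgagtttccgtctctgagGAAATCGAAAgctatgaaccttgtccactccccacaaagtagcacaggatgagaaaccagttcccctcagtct

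The match stands 34 bases before the start of Igtp, 64 before that of Irgm2, 137 before that of Gbp2b, 54 before that of Mndal and 73 before that of Ifi213. The sequence is that of the C57BL/6J reference assembly, not of A/J or C3H/HeJ, and a match is a description of these letters. Genes with the match were called in both directions, Mndal higher and the other 4 lower in C3H/HeJ.

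Lymphocyte markers were lower in C3H/HeJ as far as they were called. All 17 measured B cell markers had a negative difference, with a median of -0.67 against 0.01 over all genes. Of the 17, 5 fell (29.4% called against 4.49% of all genes). Ms4a1 (CD20) read 7.92, 8.36 and 7.91 in A/J and 6.39, 6.56 and 7.08 in C3H/HeJ (-1.38 ± 0.31, limma adjusted p = 0.0176). Cd79a, a chain of the B cell receptor complex, read 7.74, 7.89 and 7.75 against 5.90, 6.72 and 7.02 (-1.25 ± 0.27). Bank1, Fcmr and Cd22 fell by 0.92, 0.70 and 0.67. The arrays of the strains did not overlap for these 5 genes, as in 556 of the 557 called genes and 26.8% of all genes. C57BL/6J averaged 6.67 to 6.99 for the 5. The mean level of the 17 markers was 6.66 to 6.93 in A/J and 5.97 to 6.25 in C3H/HeJ. The calls are fragile: between 0 and 5 of the 17 were called with 1 array left out, while the median stayed between -0.73 and -0.59. Of 12 immunoglobulin and plasma cell genes none was called, and their median was -0.09. In whole lung, fewer cells of a type and less RNA per cell cannot be told apart.

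Of 27 T and natural killer cell genes none rose and 4 fell, with 23 below 0, a median of -0.34 and 14.8% called against 4.49% of all genes. Cd8b1, a chain of the CD8 coreceptor, read 5.30, 5.16 and 5.23 in A/J and 3.58, 4.13 and 3.21 in C3H/HeJ (-1.59 ± 0.32, limma adjusted p = 0.00837) and held with each array left out. Cd8a, the other chain, differed by -0.41 and did not pass. Gzmb, a protease of cytotoxic granules, read 6.46, 5.94 and 5.99 against 4.80, 5.02 and 4.84 (-1.25 ± 0.26) and was lost without A/J control 1 (adjusted p = 0.0519). Cd5 and Cd3d fell by 0.88 and 0.83 and were each lost without any one of 5 arrays. With 1 array left out, 1 to 4 of the 27 were called.

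The myeloid lists differed in the share called. It was 3.57% of macrophage and monocyte, 14.3% of dendritic and 15.4% of mast cell genes, against 4.49% of all genes. Of 28 macrophage and monocyte genes only the monocyte chemokine receptor Ccr2 fell, with 8.51, 8.54 and 8.27 in A/J against 7.06, 7.96 and 7.25 in C3H/HeJ (-1.02 ± 0.27, limma adjusted p = 0.0422; lost without any one of 5 arrays), and the median was 0.06. None of 14 neutrophil genes was called. Of 14 dendritic cell genes Ccr7, the receptor that guides them to lymph nodes, fell by 1.26 (lost without A/J control 2), and Bst2 fell by 0.85 (lost without any one of 3 arrays). Of 13 mast cell and basophil genes 2 fell. Hdc, which makes histamine, read 8.87, 8.92 and 8.92 in A/J and 7.57, 7.65 and 7.54 in C3H/HeJ (-1.32 ± 0.22, adjusted p = 0.00211) and held with each array left out; Tpsb2, a mast cell tryptase, fell by 1.27 and was lost without any one of 5 arrays.

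Among complement genes 4 of 23 rose and 1 fell, 21.7% against 4.49% of all genes. Besides Hc, C6 of the membrane attack complex read 5.67, 5.96 and 6.15 in A/J and 7.30, 6.80 and 7.08 in C3H/HeJ (1.13 ± 0.23, limma adjusted p = 0.00858). Cd59a, which blocks that complex on host cells, read 6.70 to 6.84 against 7.63 to 7.83 (0.99 ± 0.14), and Cd55, which blocks an earlier step, read 8.35 to 8.55 against 7.41 to 7.83 (-0.75 ± 0.15). These 3 held with each array left out, whereas Masp1 (0.55) was lost without any one of 5. Without scaling Cd55 was the only complement gene called, and C6 and Cd59a (0.69 and 0.55) were not. Of 24 endotoxin and Toll-like receptor genes 8.33% were called, against 4.49% of all genes. Tlr1 fell and Lbp, the serum protein that carries endotoxin, rose from 7.37 to 7.81 in A/J to 8.33 to 8.63 in C3H/HeJ (0.91 ± 0.19). Lbp was lost without A/J control 2 (limma adjusted p = 0.0593) and without scaling (0.46). Of 15 inflammasome genes only Naip5 was called (6.67%). Of 40 chemokines and cytokines 5% were called: Cxcl5 fell and Cxcl14, an epithelial and stromal chemokine, rose by 0.86 (lost without any one of 4 arrays).

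**Figure D4:**
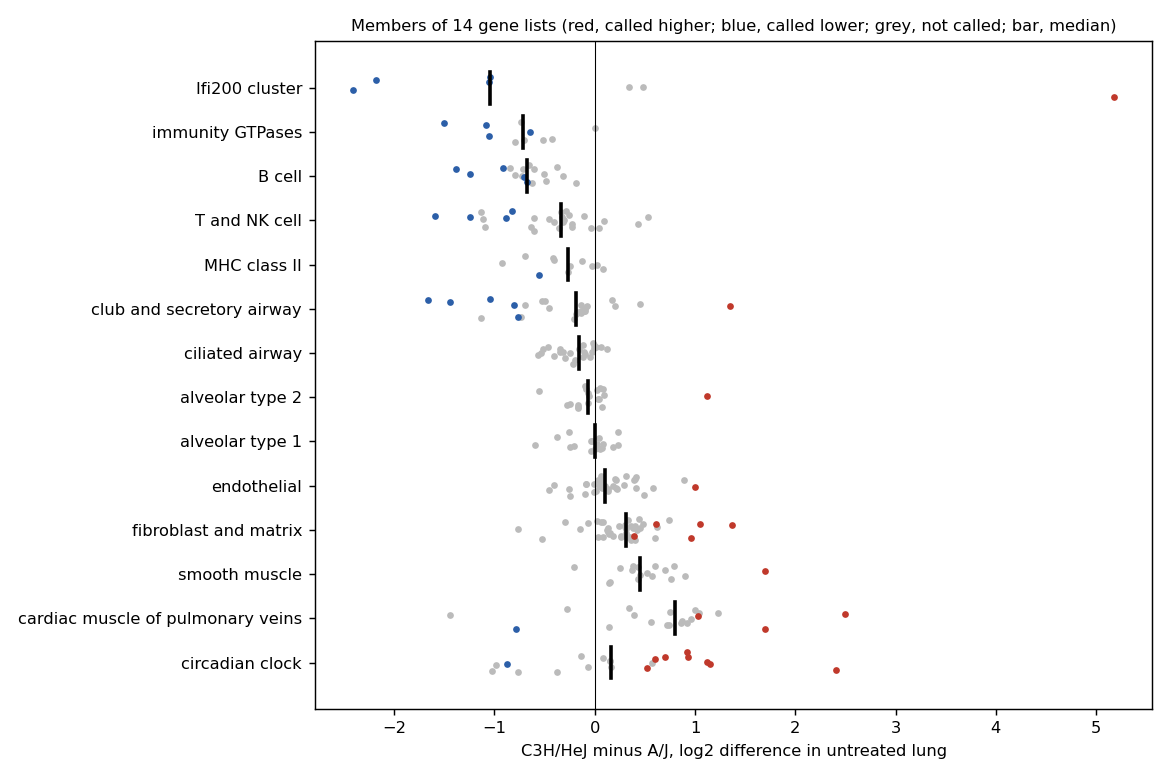
Log2 difference (C3H/HeJ minus A/J, untreated) of each measured member of 14 gene lists, with called members in red (higher) or blue (lower), the others in grey and the median as a bar. The median is -0.67 for the B cell list, 0.80 for the cardiac muscle list and 0.00 for alveolar type 1 genes.

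Few epithelial markers of the alveoli were called. Of 19 type 2 markers only Hc, which type 2 cells also express, was called (5.26% against 4.49% of all genes), and the median was -0.07. None of 17 type 1 markers was called, and their median was 0.00. Ciliated cell markers gave no call either, with 22 of 25 below 0 and a median of -0.16. In the secretory airway, of 25 club and secretory genes 1 rose and 5 fell, 24% against 4.49% of all genes. Bpifa1, an antimicrobial and surfactant protein of the airway lining, read 10.12, 9.64 and 11.05 in A/J and 11.27, 11.74 and 11.84 in C3H/HeJ (1.35 ± 0.28, limma adjusted p = 0.0105). The call of Bpifa1 was lost without A/J control 2 and without scaling (0.98). Bpifb1, a relative and neighbour of Bpifa1, went the other way, with 9.44, 9.14 and 9.44 in A/J and 7.40, 8.23 and 8.08 in C3H/HeJ (-1.44 ± 0.33, lost without any one of 3 arrays). The airway mucin Muc5b read 6.68 to 7.57 against 6.10 to 6.28 (-1.05 ± 0.23; lost without any one of 3 arrays). Reg3g, an antibacterial lectin, read 8.16, 7.91 and 9.13 in A/J and 6.07, 6.64 and 7.49 in C3H/HeJ (-1.66 ± 0.44; lost without any one of 5). Aldh1a7, an aldehyde dehydrogenase, read 10.24 to 10.37 against 9.27 to 9.74 (-0.80 ± 0.12, adjusted p = 0.00114) and held with each array left out.

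Matrix and fibroblast genes leaned the other way. Of 43 measured, 38 had a positive difference, and the median was 0.31 against 0.01 over all genes. A rise was called for 5 of them, 11.6% against 4.49% of all genes called in either direction. Mfap5, a microfibril protein, read 7.02, 6.40 and 6.50 in A/J and 7.91, 7.91 and 8.22 in C3H/HeJ (1.37 ± 0.23, limma adjusted p = 0.00229) and held with each array left out but not without scaling (0.92). Col6a3 and Col1a2, chains of collagens VI and I, rose by 1.05 and 0.61, Gas1 by 0.96 and Fbln5 by 0.39, and each of these 4 was lost without at least 5 of the 6 arrays taken singly. With 1 array left out 1 or 2 members were called. Without scaling the median of the list was -0.10, against -0.38 for all genes, and none rose and 1 fell. Of 29 matrix proteases and inhibitors 10.3% were called, against 4.49% of all genes. Timp4 and Adam17 rose by 0.74 and 0.56 and Adamts9 fell by 1.27, and all 3 were lost with some arrays left out. Of 35 endothelial genes Vwf, the clotting and adhesion factor of endothelium, rose (2.86% called against 4.49% of all genes). It read 9.60, 9.55 and 9.63 in A/J and 10.66, 10.64 and 10.49 in C3H/HeJ (1.00 ± 0.17, limma adjusted p = 0.00187). It held with each array left out but not without scaling (0.62).

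Mouse lung expresses heart-type muscle genes in the wall of the pulmonary veins. Of 20 measured, 3 rose and 1 fell in C3H/HeJ and 16 did not pass (20.0% called against 4.49% of all genes). A positive difference was seen in 17, and the median was 0.80. Actc1, cardiac actin, read 9.14, 9.30 and 8.08 in A/J and 10.54, 10.57 and 10.51 in C3H/HeJ (1.70 ± 0.33, limma adjusted p = 0.00633). Mybpc3, a myosin-binding protein, read 4.63 to 5.08 against 5.83 to 6.07 (1.03 ± 0.19; not called without scaling). Myl3, a ventricular and slow-muscle light chain, read 5.50, 4.90 and 4.71 against 7.63, 7.40 and 7.57 (2.50 ± 0.62, adjusted p = 0.03). It separated the 6 arrays widely, yet its call was lost with any 1 of them left out (2.33 to 2.73, adjusted p up to 0.108). Myh7, the slow myosin heavy chain, fell from 8.55 to 8.64 in A/J to 7.68 to 8.01 in C3H/HeJ (-0.78 ± 0.20; lost without any one of 5 arrays). A/J control 3 was low in many of these genes, with a mean over the list of 6.63 against 7.45 and 7.44 in the other A/J arrays and 7.75 to 7.94 in C3H/HeJ. Leaving out 1 array moved the median to between 0.56 and 1.03. The atrial light chains Myl7 and Myl4 differed by 0.14 and 0.87 and did not pass. Nppa, the atrial natriuretic peptide, lay the other way, at 6.53, 7.55 and 6.04 in A/J and 5.00, 5.25 and 5.52 in C3H/HeJ, without overlap (-1.45 ± 0.64, adjusted p = 0.246).

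Outside that list, 2 more sarcomere genes were among the 15 most increased. Tnnt1, the slow skeletal troponin T, read 3.93, 4.48 and 3.79 in A/J and 6.87, 6.83 and 6.86 in C3H/HeJ (2.79 ± 0.25, limma adjusted p = 1.06e-05). Myl2, the regulatory light chain of slow and ventricular muscle, read 3.15 to 3.54 in A/J and at least 5.83 in each C3H/HeJ array (2.54 ± 0.31). C57BL/6J controls averaged 4.98 for Tnnt1 and 3.54 for Myl2, so only C3H/HeJ had a clear signal for Myl2. The mean level of the skeletal muscle list was 7.88, 5.11 and 7.80 in C57BL/6J controls 1, 2 and 3, so a C57BL/6J mean of muscle genes joins unlike arrays. Of 16 skeletal muscle genes none was called and the median was 0.41. Of 17 smooth muscle genes only Actc1, shared with the cardiac list, was called (5.88% against 4.49% of all genes), with a median of 0.45. Whether the amount of venous or other muscle tissue sampled differed between the arrays was not tested.

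The circadian clock list had 8 of 20 genes higher and 1 lower in C3H/HeJ, 45.0% called against 4.49% of all genes. The clock is a feedback loop in which Clock and Arntl drive the Per, Cry, Nr1d and PAR bZIP genes, so that the level of each depends on the hour. Dbp, a PAR bZIP output factor, read 5.68, 5.45 and 5.25 in A/J and 7.88, 8.23 and 7.50 in C3H/HeJ, a difference of 2.41 ± 0.20 (limma adjusted p = 5.7e-06) or 5.31-fold. C57BL/6J was higher than both, at 9.76. Nr1d1 and Nr1d2, the REV-ERB repressors of Arntl, read 6.07 to 6.64 and 7.97 to 8.60 in A/J and 7.34 to 7.63 and 9.38 to 9.65 in C3H/HeJ (1.12 ± 0.21 and 1.15 ± 0.18). Hlf and Per3 rose by 0.93 and 0.92. The 4 other called genes, named after their values were seen, were Per2 (0.70), Tef (0.61) and Bhlhe40 (0.52), which rose, and the repressor Cry1, which fell by 0.87.

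The genes that peak in the opposite phase, also named after the values were seen, did not pass: Arntl differed by -0.77, Npas2 by -0.98, Nfil3 by -1.03 and Clock by -0.38. For Arntl, Npas2 and Nfil3 the 3 C3H/HeJ arrays lay below the 3 A/J arrays. Among all genes tested, 26.8% were without overlap in either direction. With 1 array left out, 4 or 5 clock genes were called higher and 0 to 2 lower. Dbp, Nr1d1 and Nr1d2 held with each array left out, though of the 3 only Dbp was called without scaling, whereas Per3 was lost with any 1 and Hlf with any 1 of 5. Without scaling 1 clock gene was called higher and 4 lower, and with median centring 3 higher and none lower. Time of sacrifice is not in the labels, and its part in these differences was not tested.

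The promoters of 17 of the 20 clock genes were in the table. The E-box CACGTG, the site that Clock and Arntl bind, was found in the 200 bases before the start of 5 of them, against 1728 of 32851 windows (5.26%). Of the 7 called clock genes with a promoter, Tef and Cry1 held it. The D-box TTANGTAA, which PAR bZIP factors bind, was found in 1 of the 17, Per3, against 533 windows (1.62%); both motifs were searched on both strands. These 3 windows are shown with the match in capitals, because they were called in opposite directions with the same motif (Tef and Cry1) or hold the site of Dbp's own family (Per3). They lie at chr15:81802473-81802672 (plus strand, 1 of 2 starts) for Tef, chr10:85185055-85185254 (minus) for Cry1 and chr4:151044666-151044865 (minus) for Per3, in GRCm38.p6.
Tef: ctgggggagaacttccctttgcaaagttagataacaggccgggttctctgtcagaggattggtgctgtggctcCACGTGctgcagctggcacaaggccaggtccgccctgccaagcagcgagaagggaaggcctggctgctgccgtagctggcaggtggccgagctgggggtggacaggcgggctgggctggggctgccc
Cry1: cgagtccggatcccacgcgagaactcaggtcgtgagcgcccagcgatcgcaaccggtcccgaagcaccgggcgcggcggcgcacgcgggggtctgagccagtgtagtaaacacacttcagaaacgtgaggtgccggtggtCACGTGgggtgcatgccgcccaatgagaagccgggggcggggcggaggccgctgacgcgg
Per3: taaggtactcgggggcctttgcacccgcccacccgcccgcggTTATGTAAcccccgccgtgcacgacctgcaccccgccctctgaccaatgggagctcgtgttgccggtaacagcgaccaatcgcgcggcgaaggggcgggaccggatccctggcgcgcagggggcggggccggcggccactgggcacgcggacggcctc

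Detoxification and redox genes differed in a few members. Of 43 xenobiotic-metabolism genes 2 rose and 2 fell, 9.30% against 4.49% of all genes. The glutathione transferase Gstm6 read 5.45 to 5.64 in A/J and 3.97 to 4.68 in C3H/HeJ (-1.20 ± 0.25, limma adjusted p = 0.011; lost without C3H/HeJ control 1, adjusted p = 0.0663). Gsta2 fell by 0.51, and Gstm5 and Cyp2e1 rose by 0.62 and 0.80, each lost without at least 5 of the arrays taken singly. Of 22 antioxidant genes 1 rose and 2 fell, 13.6% against 4.49% of all genes. Among them Gclc, the rate-limiting enzyme of glutathione synthesis, fell from 10.59 to 10.76 in A/J to 9.81 to 10.07 in C3H/HeJ (-0.76 ± 0.12, limma adjusted p = 0.00179) and held with each array left out. Gpx3, the secreted glutathione peroxidase, rose by 0.41 (lost without any one of 4 arrays). Klf9, a glucocorticoid-induced factor, was the only call among 20 glucocorticoid and metallothionein genes (5% against 4.49% of all genes). It read 9.90, 10.26 and 9.97 against 9.03, 9.33 and 9.26 (-0.84 ± 0.15, limma adjusted p = 0.00271).

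Of 30 genes of TGF-beta and BMP signalling 2 rose and 2 fell, 13.3% against 4.49% of all genes. Fst, follistatin, which traps activin, read 6.23, 6.10 and 6.30 in A/J and 4.92, 4.89 and 5.17 in C3H/HeJ (-1.21 ± 0.26, limma adjusted p = 0.0112) and held with each array left out. Ltbp2 and Tgfb3 rose by 0.70 and 0.48 and the inhibitor Smad7 fell by 0.51, all lost with 1 or more arrays left out. Of 25 prostaglandin and leukotriene genes 2 rose and 2 fell, 16% against 4.49% of all genes. Ptgis, prostacyclin synthase, rose from 8.85 to 8.97 in A/J to 9.67 to 9.82 in C3H/HeJ (0.80 ± 0.16, limma adjusted p = 0.00752). It held with each array left out but not without scaling (0.38) or with median centring (0.67). Ptgs2, the inducible cyclooxygenase, read 6.98, 7.15 and 7.74 in A/J and 5.61, 6.14 and 5.62 in C3H/HeJ (-1.50 ± 0.37; lost without any one of 4 arrays). Ptger2 rose by 0.60 and Alox5 fell by 0.64, both lost with some arrays left out. Adm (adrenomedullin) fell by 1.21, Junb by 0.73, and Fabp3 rose by 1.04, the only calls among 20 vasoactive, 22 immediate early and 39 lipid-metabolism genes, and each was lost without at least 5 arrays taken singly. The shares called in these lists were 5%, 4.55% and 2.56%, against 4.49% of all genes.

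Many lists gave no call: 8 natural killer receptor, 22 p53 target, 27 cell-division, 34 respiratory-chain, 13 squamous, 10 adipose, 9 red-cell, 7 mesothelial and 2 thymus genes were measured, and limma called none of them. Their medians lay between -0.34 (natural killer receptors) and 0.24 (mesothelium).

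Genes on the Y chromosome were read in all 6 arrays. Of 7 measured sex-linked genes 3, all on the Y chromosome, rose and none fell, 42.9% against 4.49% of all genes. Uty read 6.14, 6.18 and 6.44 in A/J and 7.81, 7.20 and 7.53 in C3H/HeJ (1.26 ± 0.26, limma adjusted p = 0.0102; lost without C3H/HeJ control 1, adjusted p = 0.0591). Kdm5d read 6.01 to 6.18 against 6.88 to 6.93 (0.79 ± 0.18, lost without any one of 4 arrays), and Eif2s3y 7.77 to 8.02 against 8.61 to 8.85 (0.77 ± 0.13). Without scaling none of these Y genes was called, at 0.81 for Uty, 0.36 for Kdm5d and 0.35 for Eif2s3y. Xist, which silences one X chromosome in females, read 5.29 to 6.03 in A/J and 5.68 to 5.72 in C3H/HeJ with a difference of 0.00. The X-linked partners Eif2s3x, Kdm5c and Kdm6a differed by 0.00, 0.31 and 0.00 and did not pass.

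Some called genes lay beside one another in the genome. In the gene order of the RefSeq annotation, 124 of 556 called genes with a position (22.3%) were next to another called gene among those tested, in 56 runs, of which 46 were pairs. Of the 56 runs 35 had 1 direction and 21 both. The longest held 5 genes: Gm13238, Zfp991, Miip, a suppressor of cell migration, and Mfn2, which fuses mitochondria, fell, and Zfp979 rose. Miip read 6.30 to 6.58 in A/J and 5.42 to 5.74 in C3H/HeJ (-0.83 ± 0.16, limma adjusted p = 0.00633), Mfn2 fell by 0.42 and Zfp979 rose by 1.20, the last pair each lost without any one of 4 arrays. Of 9 runs of 3, taken here in alphabetical order, the first held Dpp7, a lysosomal peptidase (-0.82, lost with any 1 array left out), Uap1l1 (1.00 ± 0.14, adjusted p = 0.000424; not called without scaling) and the ectonucleotidase Entpd2 (0.92, lost without any one of 3). The next was H2-D1, H2-Q5 and H2-Q10. The remaining runs of 3 included Kdm5d, Eif2s3y and Uty on the Y chromosome, Mapre1, Bpifa1 and Bpifb1, and Zfp945, Zfp40 and 6330415G19Rik. No test was made of whether such runs exceed those of a random draw.

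The strain differences were then read in the 6 irradiated arrays of the same strains, which share no sample with the untreated ones. The A/J irradiated arrays differed from the others in a sign of RNA quality: their actin ratio of 5' to 3' signal was 0.41, 0.55 and 0.53, against 0.68 to 0.77 in the other 15 arrays, and that of Gapdh was 0.29, 0.88 and 1.03 against 1.06 to 1.30. The part of RNA quality in the irradiated differences was not tested. There 1396 genes (11.3%) were called between the strains. Of the 557 genes called in untreated lung, 446 (80.1%) had the same sign in irradiated lung and 229 (41.1%) were called in the same direction, which is 16.4% of the irradiated calls. A further 14 were called in the opposite direction. The same sign was kept by 225 of 290 higher genes (77.6%) and 221 of 267 lower genes (82.8%), and the median absolute difference of the 557 went from 0.83 to 0.43. The 557 were chosen for their untreated differences, so smaller differences in other samples are likely from that choice alone. The share with the same sign over all genes tested was not counted. Bst1 (3.11), Zfp945 (2.73), Lefty1 (2.63) and Dysf (2.30) kept differences of like size, as did Pdxdc1 (-2.38), Adamdec1 (-2.05) and Hdc (-1.32). Mndal kept a difference of 3.97, smaller than the 5.18 of untreated lung, as irradiated A/J read 5.43, 5.21 and 4.55.

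C3H/HeJ irradiated array 3 stood apart. On a scale over the 557 called genes where the mean of A/J controls is 0 and that of C3H/HeJ controls is 1, the other C3H/HeJ irradiated arrays lay at 0.87 and 0.88 and this one at 0.54, while the A/J irradiated arrays lay at 0.26 to 0.29. The C57BL/6J arrays, control and irradiated, lay at 0.37 to 0.53 on this scale. At Dysf, Lefty1, Mndal and Bst1 C3H/HeJ irradiated array 3 read 5.74, 5.36, 8.66 and 6.69, far above the A/J arrays. C57BL/6J was also far above A/J at Lefty1, Mndal and Bst1. At Zfp945 it read 5.91, between the A/J arrays (3.33 to 4.85) and the other C3H/HeJ arrays (6.52 to 7.49). Whether a sample is mislabelled or of mixed background was not tested, so the irradiated values are those of the libraries as labelled. Without C3H/HeJ irradiated array 3, 605 genes were called in untreated lung. Of these, 502 (83.0%) had the same sign and 287 (47.4%) were called the same way in irradiated lung. Without C3H/HeJ irradiated array 1 or 2, 137 and 134 were called the same way.

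The difference between the strains itself differed between irradiated and untreated lung for 131 genes (1.06%), of which 57 were among the 557. Both calls used the same untreated arrays. Genes picked for a large untreated difference therefore lean toward a shift that offsets it, and the overlap of 57 is not separate evidence. Cxcl5 had the greatest shift: in irradiated lung it read 4.02, 4.23 and 3.78 in A/J and 5.12, 5.60 and 5.13 in C3H/HeJ, so that the order of the strains was turned round (limma, shift 3.70 ± 0.35, adjusted p = 0.000124). Dbp read 8.83, 9.04 and 9.11 in irradiated A/J and 8.25, 8.42 and 8.55 in irradiated C3H/HeJ, against a difference of 2.41 the other way in untreated lung (shift -2.99 ± 0.29, adjusted p = 0.000124). Ifi204 read 4.71, 5.35 and 5.42 against 5.11, 4.93 and 5.46, with no gap left. H2-Ea, overlapping in untreated lung, read 3.62, 4.05 and 4.29 in irradiated A/J and 7.16, 6.75 and 5.94 in irradiated C3H/HeJ. Vwf read 9.90 to 10.50 in irradiated A/J and 9.22 to 9.53 in irradiated C3H/HeJ, again the reverse of the untreated order. The count of 131 was 198 without C3H/HeJ irradiated array 3 and 33 without C3H/HeJ irradiated array 2, the highest and lowest with 1 array left out. It was 55 without C3H/HeJ irradiated array 1, 61, 38 and 68 without A/J controls 1, 2 and 3, and 50 and 72 without C3H/HeJ controls 1 and 2.

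**Figure D5:**
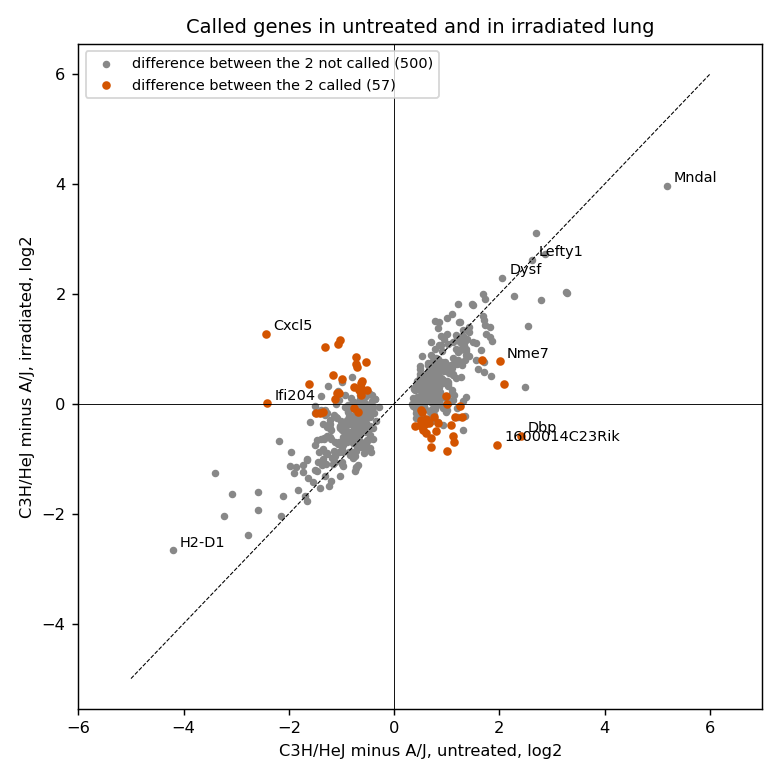
Strain difference (C3H/HeJ minus A/J, log2) of the 557 called genes in untreated lung, on the x axis, and in irradiated lung, on the y axis, with a dashed line where both are equal. Most points lie in the same-sign quadrants (446), and the 57 genes whose difference itself changed (orange) include Cxcl5 and Dbp on the opposite side of 0. The orange calls use the untreated arrays of the x axis as well.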

How the data were processed

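Lung RNA of 18 samples was measured on arrays, and the 3 A/J and 3 C3H/HeJ control samples were compared. The deposited values are linear signal intensities, 1 for each of 45101 probe sets an array. Per the submitters' processing notes they were made with MAS5, version not given. As array brightness differed, log2(signal + 7) was quantile normalised over the 18 arrays. The 64 control probe sets were left out. A probe set was kept if above the overall median in at least 3 arrays (25726 kept). Gene names came from the platform annotation, in which 34958 probe sets name 1 gene and 932 several, updated through gene identifiers, and 9160 further probe sets are unnamed here. The kept probe set with the highest mean stood for a gene, which gave 12405 genes. The number of arrays limits the precision.

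limma 3.58.1 in R 4.3.3 fitted 6 group means to all 18 arrays (12 residual degrees of freedom, Benjamini-Hochberg adjustment over all genes, two-sided, threshold 0.05). All adjusted p-values of genes come from limma. Tested on simulated data for this comparison over 12405 genes, the fit called 35.8% of changes of 0.5, 80.6% of changes of 1 and 98.5% of changes of 2, with 10 false calls among 153. The genes named are the 15 highest and 15 lowest called genes without overlap between the arrays, up to 5 called members of each list, all measured members of 3 short lists (known strain variants, MHC class II, sex-linked), the 6 highest and 6 lowest shifts with irradiation, and the genes of the 3 longest neighbour runs (1 run of 5, and the first 2 of 9 tied runs of 3 in alphabetical order); any other is said to be named after its values were seen, or is given to account for a list. The samples and the 47 gene lists were chosen with earlier results of these data known. Alternatives were other scalings, pseudocounts, filters, sets of arrays and variance settings, the replicate number as a block, and each array left out; leaving out arrays for list counts was added after the data were seen. Promoter sequences are from RefSeq (GRCm38.p6), matched by gene identifier. The array files name no genome build, so genes were placed only in their order. No scan date or batch is in the sources used here.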

Additional observations from a re-analysis of the deposited data

Results flagged for a closer look

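For 22 named genes the strain difference itself differed between irradiated and untreated lung by a limma interaction term (adjusted p from 0.000124 to 0.0471); the shift, irradiated minus untreated, is given on the log2 scale. Genes whose difference shifted toward C3H/HeJ were Cxcl5 (3.70), H2-Ea (2.66), Ifi204 (2.42), Med18 (2.35), the acute-phase gene Saa3 (2.35), Ccr2 (2.19), Junb (1.59), Irgm2 (1.29), Igtp (1.25), Gclc (1.06) and H2-Ab1 (0.98). Of these, H2-Ea, Saa3 and H2-Ab1 had not been called in untreated lung (-0.03, -0.23 and -0.41). Saa3 read 7.97 to 8.32 in irradiated A/J and 10.09 to 10.46 in irradiated C3H/HeJ. H2-Ea was lower in irradiated A/J (3.62 to 4.29) than in untreated A/J (6.87 to 7.57). Lefty1 read 3.19 to 3.30 in irradiated and 2.97 to 3.27 in untreated A/J. The A/J irradiated arrays also had the lowest actin ratios of 5' to 3' signal (0.41 to 0.55), and whether RNA quality or a mislabelled sample bears on these shifts was not tested.

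Genes whose difference shifted toward A/J were Dbp (-2.99), 1600014C23Rik (-2.70), Vwf (-1.86), C6 (-1.83), Bex1 (-1.74), Rbpjl (-1.72), Nr1d1 (-1.70), Nr1d2 (-1.39), Nme7 (-1.23), Cd59a (-0.85) and Gpx3 (-0.81). Rbpjl had not been called in untreated lung (0.15). For Nme7 the strains stayed in the same order, with 6.85 to 7.05 in irradiated A/J and 7.56 to 7.86 in irradiated C3H/HeJ. Irradiated mice of the strains were killed at different ages, and age, illness and dose cannot be told apart in these shifts.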

How the results depend on the processing

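The 557 calls in untreated lung became 251 without scaling, 353 with median centring, 1121 where each of 25726 probe sets was tested alone, and 326 to 450 with 1 of the 6 arrays left out. They stayed within 1.5 times 557 with the other pseudocounts (533 and 604), no filter (418 of 18193 genes) or a stricter one (430 of 7911), the 6 arrays only (538), the 9 untreated arrays (673), without C3H/HeJ irradiated array 3 (605), without the 3 arrays high in squamous keratins (529), and with trended robust variances (617). The 229 genes called the same way in irradiated lung became 90 without scaling, and 134 to 287 with 1 irradiated array left out. The 131 genes whose strain difference changed with irradiation became 36 without scaling, 71 with median centring and 198 without C3H/HeJ irradiated array 3, and 33 to 198 with 1 array left out. Fbln5 turned from 0.39 to -0.0174 without scaling, where the median of all genes shifted by -0.38; no other of the 119 named called genes reversed under an alternative run. Of those 119, 43 kept their call under every alternative run, among them 29 of the 30 greatest differences (not Myl3), 57 kept it with each of the 6 arrays left out, and 53 lost it without scaling, 37 of them among the 54 called higher. An alternative whose filter dropped a gene was not counted for that gene. Dysf, Lefty1 and Cxcl5, for example, were read in 17 of 18 alternatives. The replicate numbers did not pair the samples (correlations of same-numbered A/J and C3H/HeJ deviations 0.04, 0.04 and 0.03, each still the highest of its sample, a hint from the data and not from the design), and with the replicate number as a block the counts were 517, 221 and 109. Dim probe sets limit the lowest values: those near the floor of 2.81 give only a lower bound on a fold. The causes of these changes were not tested.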

Other observations

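Probe sets without a gene in the annotation also differed between the strains. Of 3201 kept probe sets with no annotation, 190 (5.94%) were called, 91 higher and 99 lower in C3H/HeJ, against 888 of 21920 (4.05%) that name 1 gene. The greatest difference was on 1454691_at, which read 3.80 to 4.04 in A/J and 9.20, 9.35 and 9.25 in C3H/HeJ, a limma difference of 5.32 ± 0.31 (adjusted p = 7.6e-08), against 5.18 for Mndal, the most increased of the genes tested. In the other direction 1439686_at, at 7.24 to 7.63 in A/J, differed by -3.83 ± 0.38. Both were chosen after their values were seen.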
